A study of Homo sapiens with 18 samples.

Results

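The Eph receptors, their ephrin ligands, the SLIT ligands with their ROBO receptors, and the netrins with their receptors DCC and UNC5 form the classical axon guidance systems, and 36 of their genes were followed here in 2 lung adenocarcinoma cell lines. Members were the protein-coding genes whose symbols belong to these families, found by mapping the deposited Ensembl gene identifiers to GENCODE symbols: 9 EphA receptors, 5 EphB receptors, 5 ephrin-A and 3 ephrin-B ligands, 3 SLITs, 4 ROBOs, the netrins NTN1 and NTN4, and 5 netrin receptors. They were 36 of the 60357 mapped genes in the short-read tables and of 58207 in the long-read tables. The rule itself uses symbols and no measured value, but the group was chosen with earlier results of these data known.

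NCI-H1975 and HCC827 are established human lung adenocarcinoma lines that both carry activating mutations in the growth factor receptor gene EGFR. The labels record no treatment or genetic change in either line, and every library received synthetic spike-in RNAs called sequins. Each line was grown as 3 independent cultures in RPMI medium with serum to near confluence, and each RNA sample was sequenced by 3 methods, giving 6 groups of 3 libraries. Illumina libraries (75-nt paired short reads, 3.75 ng of poly(A) RNA, 11 PCR cycles) and Oxford Nanopore (ONT) PCR-cDNA libraries (1.5 ng, 14 cycles) started from purified mRNA. For PacBio, Iso-Seq libraries were made from total RNA with 12 cycles and a fragment size target near 2 kb. Each line is a single model of its tumour type, so a difference between them is a difference between 2 lines and not between tumour classes.

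Eph receptors are receptor tyrosine kinases that bind ephrins on neighbouring cells. Ephrin-A ligands are tethered to the membrane by a lipid anchor and ephrin-B ligands span it, and signals pass into both cells. In epithelia they set boundaries and contact-dependent spacing. SLITs are secreted proteins that bind ROBO receptors and usually repel migrating cells or growth cones. Netrins are secreted laminin-like proteins that attract through DCC and repel through UNC5 receptors, and DCC and the UNC5 proteins are also described as dependence receptors, which promote cell death when no ligand is bound. In lung cancer EPHA2 is the family member most often studied, and SLIT and ROBO genes are known targets of promoter methylation.

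Gene totals lay between 33362018 and 40200473 counts in 5 Illumina libraries and at 10020699 in HCC827 replicate 2, between 81467393 and 116497461 in the ONT libraries, and between 37795 and 54339 in the PacBio libraries. An exon of 18 members overlaps another annotated gene, on the opposite strand for 13 and on the same strand for 5. Whether the authors counted by strand is not stated in the labels, so counts of these members can hold reads of the other gene. Levels below are counts per 1000000 (CPM) of the tested genes after TMM scaling. Differences are log2 folds of HCC827 over H1975 with their standard error (SE), and a gene was called when edgeR's quasi-likelihood test gave a Benjamini-Hochberg adjusted p under 0.05 over all genes tested. Markers of lung adenocarcinoma epithelium summed to 2402 to 2596 CPM in the Illumina libraries of H1975 and 7944 to 12577 CPM in those of HCC827, and all 8 were higher in HCC827. Fibroblast markers summed to 67.2 to 79.6 CPM in H1975, nearly all of it COL1A2, and to 0.305 to 0.806 CPM in HCC827. Endothelial markers summed to 6.70 to 7.99 CPM and 3.73 to 4.55 CPM, with 5 of 8 under 1 CPM in both lines. Neuronal markers summed to 121 to 136 CPM and 94.7 to 136 CPM, mostly TUBB3, with 5 of 9 under 1 CPM and NEFL at 0. Of the 4 neuronal markers tested in Illumina, SNAP25 (305 counts against 0), SYP and MAP2 were called lower in HCC827 and TUBB3 was not called. Leukocyte markers summed to 6.17 to 7.12 CPM and 0.933 to 1.52 CPM, with 4 of 5 under 1 CPM. The part of these marker levels in the differences below was not tested. In bulk RNA, fewer cells with a transcript and less transcript per cell cannot be told apart.

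The lines differed at 23 of the 34 members that passed the filter on low counts in Illumina, 10 higher and 13 lower in HCC827. Across all genes tested on that platform 74.1% were called, 36.1% higher and 38% lower, so the share of guidance genes lay near the background. In ONT 18 of 31 tested members were called, 10 higher and 8 lower, beside 62.7% of all genes (31.1% higher and 31.6% lower). A log2 fold of -1 or below was called for 10 members in Illumina and 7 in ONT, beside 20.2% and 19.7% of all genes. A fold of 1 or above was called for 3 and 2 members, beside 18.2% of all genes on either platform. The ranges of the lines were separate for 22 of the 34 members in Illumina and 19 of the 31 in ONT, beside 76.9% and 69.1% of all genes. The median log2 fold of the tested members was -0.08 in Illumina and 0.06 in ONT, beside -0.04 and -0.02 for all genes. With scaling by total counts in place of TMM, the split became 6 higher and 20 lower in Illumina and 1 higher and 16 lower in ONT, and the median of all genes itself moved by -0.35 and -0.55. Small differences thus depended on the scaling. The calls of EPHB6, ROBO1, ROBO3, ROBO4, SLIT2, UNC5B and UNC5C held on both platforms under every alternative that was run.

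Of the 30 members tested on both platforms, 13 were called in the same direction on both, beside 55.4% of all genes tested on both, and 0 were called in opposite directions. The 7 lower in HCC827 were EFNB2, EPHB6, ROBO1, ROBO3, ROBO4, SLIT2 and UNC5B. The 6 higher were EFNA4, EFNA5, EFNB3, EPHA2, ROBO2 and UNC5C. A call on both with a log2 fold of at least 1 on both was reached by 8 of the 30, beside 28.5% of all genes tested on both. Of the 8, EPHB6, ROBO1, ROBO3, ROBO4, SLIT2 and UNC5B fell (beside 14.7% of all genes tested on both) and EFNB3 and UNC5C rose (13.9%). EPHA8 was tested on neither platform, SLIT3 only in ONT, and EFNA2, EPHA7, SLIT1 and UNC5A only in Illumina.

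**Figure D1:**
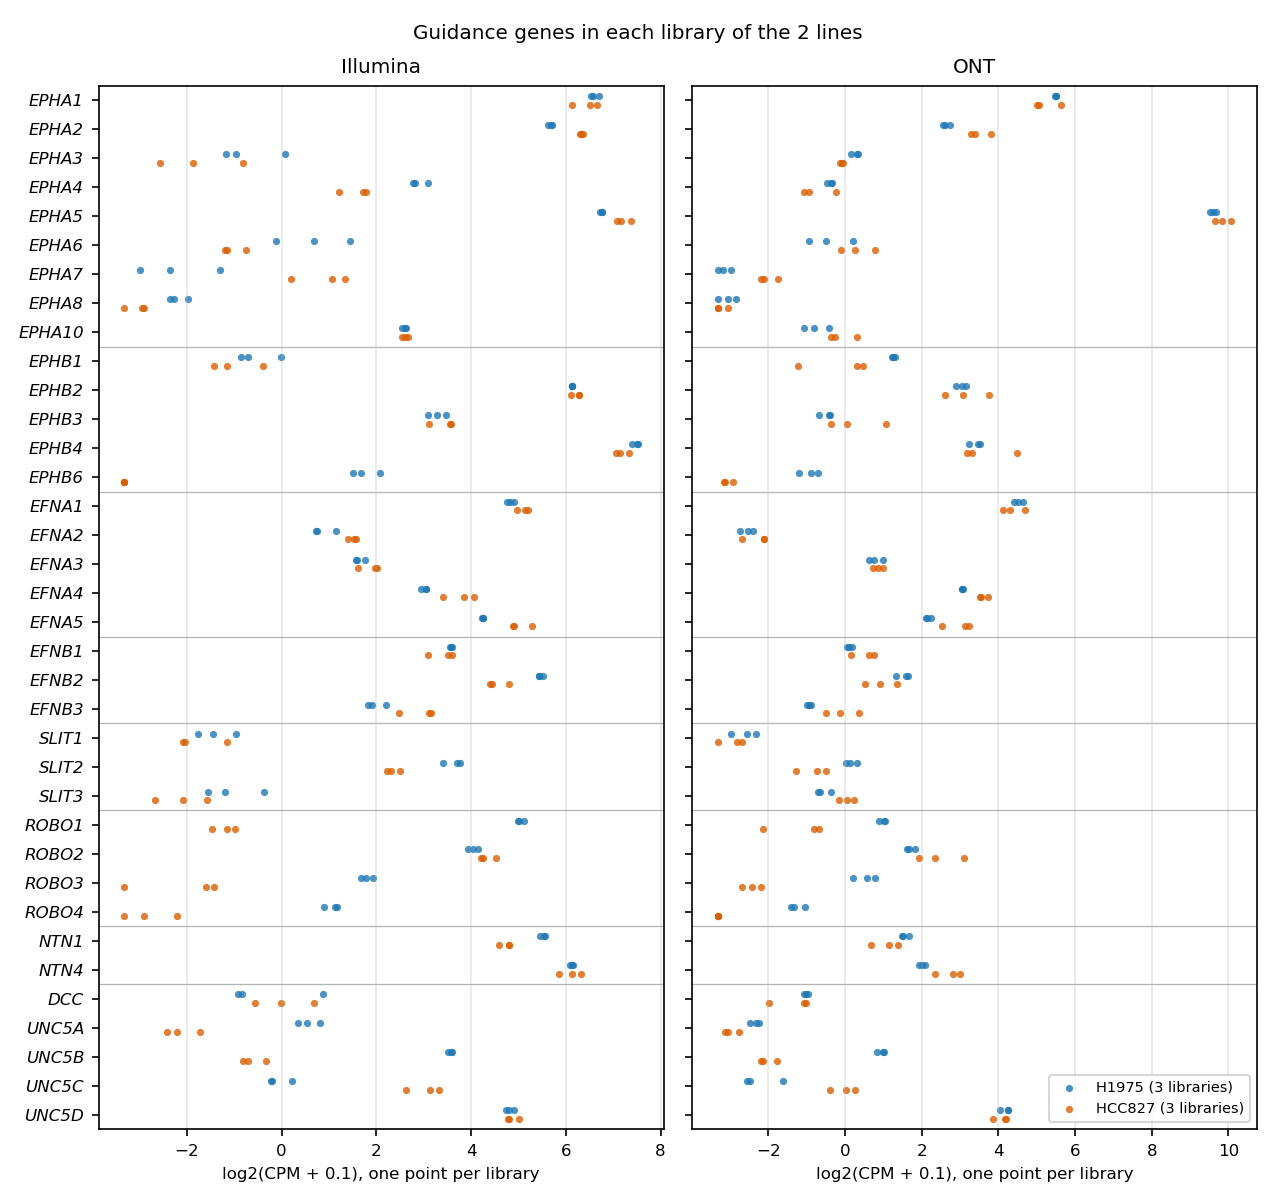
Level of each of the 36 guidance genes in every Illumina (left) and ONT (right) library on a log2 axis of CPM with 0.1 added, with H1975 in blue, HCC827 in orange and grey lines between families. A gene's rows compare the lines, not genes of different length: EPHB6, ROBO1, ROBO3, ROBO4 and UNC5B lie far to the left in HCC827 on both platforms, and UNC5C lies to the right.

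Among the EphA receptors, Illumina called 3 of 8 tested members higher in HCC827 (EPHA2, EPHA5, EPHA7) and 3 lower (EPHA3, EPHA4, EPHA6). Of all genes 36.1% were called higher and 38% lower on that platform. Only the direction of EPHA10, which was not called, turned there with scaling by total counts. EPHA2 is the receptor most often described as abundant in carcinoma cells. In Illumina it had 49.5, 51.3 and 52.1 CPM in H1975 against 79.7, 78.2 and 81.5 CPM in HCC827, and in ONT 5.75, 5.96 and 6.53 CPM in H1975 against 9.66, 14.0 and 10.4 CPM in HCC827. All HCC827 libraries lay above all H1975 libraries on both platforms, with a log2 fold of 0.65 ± 0.09 (SE; adjusted p = 1.01e-05) in Illumina and 0.90 ± 0.17 (SE; adjusted p = 0.000868) in ONT. With total counts the ONT call was lost (0.36, adjusted p = 0.151). In the PacBio libraries EPHA2 had 9 counts in H1975 and 16 in HCC827, a ratio of 1.94 on the effective library sizes with a 95% counting interval of 0.808 to 4.99.

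EPHA7, which was near the floor of detection in H1975, showed the largest rise among the EphA receptors called in Illumina. Its Illumina levels were 0.0966, 0.305 and 0.0266 CPM in H1975 against 1.99, 1.05 and 2.44 CPM in HCC827, and the ranges did not overlap (log2 fold 3.69 ± 0.44, adjusted p = 3.24e-06). It was not tested in ONT, where it had 0.0270, 0 and 0.00993 CPM in H1975 against 0.129, 0.118 and 0.198 CPM in HCC827, again with separate ranges. Without H1975 replicate 2 the Illumina fold was 4.88. A gene on the opposite strand overlaps an EPHA7 exon, with 18 Illumina counts over the H1975 libraries and 27 over the HCC827 libraries. EPHA7 itself had 19 and 150, so its few H1975 counts are uncertain.

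EPHA4, a receptor that binds ligands of both ephrin classes, had 6.98, 8.38 and 6.70 CPM in H1975 against 3.20, 2.21 and 3.35 CPM in HCC827 in Illumina. The log2 fold was -1.26 ± 0.15 (SE; adjusted p = 4.14e-06), with no overlap between lines. In ONT it had 0.692, 0.628 and 0.675 CPM in H1975 against 0.420, 0.757 and 0.381 CPM in HCC827, and HCC827 replicate 2 lay above every H1975 library. The ONT fold of -0.35 ± 0.28 (SE; adjusted p = 0.288) was not called with all libraries and was -0.70 (adjusted p = 0.0174) without that library.

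EPHA3 and EPHA6 were low in both lines. EPHA3 had 0.410, 0.957 and 0.345 CPM in H1975 against 0.173, 0.466 and 0.0677 CPM in HCC827 in Illumina, where the ranges overlapped, and its fold of -1.78 ± 0.58 (SE; adjusted p = 0.0127) was -1.17 (adjusted p = 0.0679) without H1975 replicate 2 and -1.30 (adjusted p = 0.089) without HCC827 replicate 3. In ONT its fold was -0.39 ± 0.19 (SE; adjusted p = 0.086). EPHA6 had 1.50, 2.61 and 0.824 CPM in H1975 against 0.489, 0.350 and 0.338 CPM in HCC827 in Illumina, lower in every HCC827 library (log2 fold -2.02 ± 0.43, adjusted p = 0.000663). In ONT the EPHA6 levels were 1.06, 0.426 and 0.616 CPM in H1975 against 1.09, 1.61 and 0.833 CPM in HCC827, with overlapping ranges and a fold of 0.74 ± 0.34 (SE; adjusted p = 0.0769). That ONT fold was 1.17 (adjusted p = 0.0145) without H1975 replicate 1 and 0.94 (adjusted p = 0.0384) without HCC827 replicate 3.

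EPHA5, a receptor best known from the developing brain, was among the most abundant members in Illumina and ONT. Its Illumina levels were 108, 108 and 105 CPM in H1975 against 136, 144 and 167 CPM in HCC827, all higher in HCC827 (log2 fold 0.47 ± 0.10, adjusted p = 0.000586). Its ONT levels were 818, 777 and 739 CPM in H1975 against 905, 798 and 1079.7 CPM in HCC827, where the lines overlapped and the fold of 0.25 ± 0.13 (SE; adjusted p = 0.117) was not called. Without HCC827 replicate 2 the ONT fold was 0.38 (adjusted p = 0.00254), and with scaling by total counts it turned to -0.31 (adjusted p = 0.0104). Total counts also took away the Illumina call (0.11, adjusted p = 0.282).

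EPHA1, whose exons overlap ZYX on the opposite strand so that its counts are uncertain, was high in both lines, with 95.4, 92.6 and 104 CPM in H1975 against 70.3, 100.5 and 90.3 CPM in HCC827 in Illumina, and was not called there (log2 fold -0.17 ± 0.12, adjusted p = 0.223). In ONT its levels were 44.3, 45.0 and 44.9 CPM in H1975 against 31.9, 49.8 and 33.1 CPM in HCC827, with HCC827 replicate 2 above H1975 and the other two below. The ONT fold of -0.23 ± 0.18 (SE; adjusted p = 0.283) became -0.43 (adjusted p = 0.00261) without that library. EPHA1 was the only member abundant enough to be tested in the PacBio libraries, where it had 39 counts in H1975 and 32 in HCC827 and a fold of -0.26 (adjusted p = 0.742). EPHA10, which lacks kinase activity, did not pass the test in Illumina (log2 fold 0.01 ± 0.12, adjusted p = 0.951) and was called higher in ONT (log2 fold 0.77 ± 0.28, adjusted p = 0.0349). The ONT call of EPHA10 was lost without H1975 replicate 1 (0.59, adjusted p = 0.141), without H1975 replicate 2 (0.72, adjusted p = 0.102), without HCC827 replicate 2 (0.53, adjusted p = 0.0881) and with total counts (0.23, adjusted p = 0.55). Illumina gave EPHA8 15 counts in H1975 and 2 in HCC827, a ratio of 4.37 for H1975 over HCC827 with a 95% counting interval of 1.02 to 39.4.

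EPHB6, the EphB receptor without kinase activity, separated the lines most clearly among the EphB receptors. In Illumina it had 4.10, 3.09 and 2.74 CPM in H1975 against 0 in all 3 libraries in HCC827. This was 415 counts against 0, and at the floor of 3 counts over the HCC827 libraries the level in H1975 was at least 80.6-fold higher on the same TMM scale. In ONT it had 0.440, 0.334 and 0.516 CPM in H1975 against 0.0323, 0.0118 and 0.0141 CPM in HCC827, a log2 fold of -4.33 ± 0.46 (SE; adjusted p = 1.52e-05), and PacBio had 2 counts in H1975 and 0 in HCC827. Every H1975 library lay above every HCC827 library on both deep platforms. Each HCC827 ONT library still held at least 1 EPHB6 count, and the group held 5.

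The other EphB receptors differed less. EPHB4, the receptor for ephrin-B2 in blood vessels and many epithelia, had 184, 167 and 180.4 CPM in H1975 against 133, 160.3 and 141 CPM in HCC827 in Illumina, slightly lower in HCC827 (log2 fold -0.29 ± 0.10, adjusted p = 0.0158). Its call was lost without H1975 replicate 1 (-0.27, adjusted p = 0.0752) and without H1975 replicate 3 (-0.28, adjusted p = 0.0661). EPHB4 shares exon positions with SLC12A9 on the opposite strand, so its counts are uncertain. In ONT EPHB4 had 10.9, 9.25 and 11.3 CPM in H1975 against 9.77, 22.3 and 9.02 CPM in HCC827, with HCC827 replicate 2 far above the rest. The fold was 0.39 ± 0.30 (SE; adjusted p = 0.276). That library was also the highest HCC827 ONT library for EPHA1, EPHA2, EPHA4, EPHB2, EPHB3, EFNB2, ROBO2 and NTN4, among others. It was the lowest for EFNA1, EFNA3, EPHA5 and UNC5D, among others. Its deviations in single genes are therefore not separate results. EPHB2 was not called on either platform: 0.10 ± 0.09 (SE; adjusted p = 0.348) in Illumina and 0.18 ± 0.25 (SE; adjusted p = 0.545) in ONT.

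EPHB1 and EPHB3 were called in ONT only. EPHB1 had 2.36, 2.28 and 2.23 CPM in H1975 against 1.14, 1.29 and 0.325 CPM in HCC827 in ONT, a fold of -1.30 ± 0.36 (SE; adjusted p = 0.00848), and 0.507, 0.892 and 0.452 CPM in H1975 against 0.662, 0.350 and 0.271 CPM in HCC827 in Illumina, where the ranges overlapped (log2 fold -0.44 ± 0.39, adjusted p = 0.323). EPHB3 had 0.665, 0.527 and 0.645 CPM in H1975 against 0.679, 1.99 and 0.946 CPM in HCC827 in ONT (log2 fold 0.97 ± 0.35, adjusted p = 0.0324). HCC827 replicate 2 was the highest EPHB3 library, and without it the fold was 0.42 (adjusted p = 0.129). Its call was also lost without any 1 of the H1975 libraries, at folds of 1.03 (adjusted p = 0.0643), 0.87 (adjusted p = 0.101) and 1.00 (adjusted p = 0.0661) without replicates 1, 2 and 3, and with total counts (0.45, adjusted p = 0.358). In Illumina EPHB3 gave 0.11 ± 0.15 (SE; adjusted p = 0.491).

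The ephrin-A ligands were called higher in HCC827 at 4 of 5 members in Illumina and 2 of 4 in ONT, with none lower. Across all genes 36.1% were called higher in Illumina and 31.1% in ONT, and 38% and 31.6% lower. With scaling by total counts EFNA1 turned to -0.086 in Illumina, and EFNA4 to -0.0055 and EFNA3 to -0.50 in ONT. EFNA5, a ligand of several EphA receptors, had 18.8, 18.5 and 19.0 CPM in H1975 against 39.0, 29.7 and 29.5 CPM in HCC827 in Illumina, and in ONT it had 4.34, 4.21 and 4.65 CPM in H1975 against 9.35, 8.72 and 5.70 CPM in HCC827. The HCC827 libraries were higher on both platforms, at 0.81 ± 0.11 (SE; adjusted p = 1.65e-05) and 0.85 ± 0.19 (SE; adjusted p = 0.00274). Total counts took away the ONT call of EFNA5 (0.31, adjusted p = 0.249).

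EFNA4 had 7.58, 8.12 and 8.19 CPM in H1975 against 10.5, 16.7 and 14.3 CPM in HCC827 in Illumina, and in ONT it had 8.32, 8.17 and 8.19 CPM in H1975 against 11.4, 11.6 and 13.3 CPM in HCC827. Its folds were 0.75 ± 0.15 (SE; adjusted p = 0.00033) and 0.55 ± 0.14 (SE; adjusted p = 0.00482), without overlap. EFNA4 and EFNA3 share exons on one strand with the annotated read-through gene EFNA4-EFNA3, which held 1242 and 1088 Illumina counts and 2913 and 3264 ONT counts in H1975 and HCC827. How reads were divided among these 3 genes is not stated in the labels, so the EFNA4 and EFNA3 values are uncertain. EFNA3 was not called in Illumina (log2 fold 0.21 ± 0.16, adjusted p = 0.251) or ONT (log2 fold 0.06 ± 0.18, adjusted p = 0.786), though its Illumina fold was 0.37 (adjusted p = 0.0468) without HCC827 replicate 1.

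EFNA1, a ligand of EPHA2, had 28.3, 27.0 and 29.9 CPM in H1975 against 31.2, 35.3 and 36.7 CPM in HCC827 in Illumina (log2 fold 0.27 ± 0.10, adjusted p = 0.0212). That call was lost without H1975 replicate 1 (0.27, adjusted p = 0.0752), H1975 replicate 2 (0.23, adjusted p = 0.126) or HCC827 replicate 3 (0.19, adjusted p = 0.105). In ONT EFNA1 gave -0.13 ± 0.17 (SE; adjusted p = 0.518) with overlapping ranges. EFNA2 was low, with 1.75 ± 0.328 CPM in H1975 and 2.73 ± 0.168 CPM in HCC827 in Illumina (SD, n = 3), higher in HCC827 (log2 fold 0.64 ± 0.18, adjusted p = 0.00545), and was not tested in ONT. Total counts took away its Illumina call (0.29, adjusted p = 0.172).

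The ephrin-B ligands moved apart from each other. EFNB2, the ephrin-B2 ligand that marks arterial endothelium and binds EPHB4, had 43.1, 43.3 and 45.7 CPM in H1975 against 27.7, 20.9 and 21.6 CPM in HCC827 in Illumina, lower in every HCC827 library (log2 fold -0.90 ± 0.11, adjusted p = 5.12e-06). Its exons overlap the opposite-strand gene ENSG00000284966, which held 3886 and 1203 Illumina counts in H1975 and HCC827 and 501 and 270 ONT counts, so the EFNB2 counts are uncertain. The ONT libraries held 3.03, 2.40 and 2.90 CPM in H1975 against 1.78, 2.48 and 1.33 CPM in HCC827, where HCC827 replicate 2 reached into the H1975 range (log2 fold -0.57 ± 0.23, adjusted p = 0.0468). The ONT call was fragile, and was lost without 5 of the 6 libraries taken singly. The ONT fold was -0.51 (adjusted p = 0.136), -0.67 (adjusted p = 0.0543) and -0.55 (adjusted p = 0.12) without H1975 replicates 1, 2 and 3. It was -0.53 (adjusted p = 0.132) and -0.38 (adjusted p = 0.126) without HCC827 replicates 1 and 3.

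EFNB3 rose: it had 4.51, 3.46 and 3.64 CPM in H1975 against 8.49, 5.48 and 8.76 CPM in HCC827 in Illumina, and in ONT it had 0.405, 0.426 and 0.437 CPM in H1975 against 0.808, 1.18 and 0.607 CPM in HCC827. All HCC827 libraries lay above all H1975 libraries, and HCC827 replicate 2 was the lowest of its line in Illumina but the highest in ONT. The log2 folds were 1.03 ± 0.16 (SE; adjusted p = 5.04e-05) and 1.04 ± 0.27 (SE; adjusted p = 0.00593), which corresponds to 2.05-fold and 2.06-fold. With total counts the ONT fold was 0.51 (adjusted p = 0.177). PacBio had 0 counts in H1975 and 2 in HCC827. EFNB1 was not called in Illumina (log2 fold -0.11 ± 0.12, adjusted p = 0.415) or ONT (log2 fold 0.46 ± 0.21, adjusted p = 0.0776), where its fold was 0.63 (adjusted p = 0.0126) without HCC827 replicate 3.

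Among the SLIT ligands SLIT2 was the only member with more than 1 CPM in every Illumina library. It had 13.4, 12.8 and 10.5 CPM in H1975 against 5.53, 4.55 and 4.84 CPM in HCC827 in Illumina, and in ONT it had 1.13, 0.922 and 0.993 CPM in H1975 against 0.614, 0.508 and 0.310 CPM in HCC827. The H1975 libraries were higher on both platforms without overlap, and SLIT2 fell by 2.42-fold in Illumina (log2 fold -1.27 ± 0.13, adjusted p = 8.93e-07) and 2.10-fold in ONT (log2 fold -1.07 ± 0.26, adjusted p = 0.00393). PacBio had 3 counts in H1975 and 0 in HCC827.

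SLIT3 was tested in ONT alone, at 0.512, 0.537 and 0.675 CPM in H1975 against 1.07, 0.946 and 0.790 CPM in HCC827 (log2 fold 0.71 ± 0.22, adjusted p = 0.0162). The call was lost without H1975 replicate 1 (0.62, adjusted p = 0.0745), H1975 replicate 2 (0.66, adjusted p = 0.0656) or HCC827 replicate 1 (0.61, adjusted p = 0.0586), and with total counts (0.15, adjusted p = 0.579). In Illumina SLIT3 had 0.338, 0.674 and 0.239 CPM in H1975 against 0.0576, 0.233 and 0.135 CPM in HCC827, the opposite order. SLIT1 had 0.291 ± 0.112 CPM in H1975 and 0.210 ± 0.121 CPM in HCC827 in Illumina (SD, n = 3) and was not called (log2 fold -0.81 ± 0.50, adjusted p = 0.155). It shares exons with the read-through gene ARHGAP19-SLIT1, which held 1839 and 738 Illumina counts in H1975 and HCC827, so its few counts are uncertain.

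Of the 4 ROBO receptors 3 were lower and 1 was higher in HCC827 on both platforms. Of all genes tested on both, 55.4% were called in the same direction on both. The small Illumina rise of ROBO2 turned to -0.084 with scaling by total counts. ROBO1, the broadly expressed SLIT receptor, had 31.4, 32.0 and 34.5 CPM in H1975 against 0.259, 0.350 and 0.406 CPM in HCC827 in Illumina. HCC827 was 97.8-fold lower (log2 fold -6.61 ± 0.17, adjusted p = 8.21e-13). In ONT the levels were 1.76, 1.96 and 1.94 CPM in H1975 against 0.474, 0.520 and 0.127 CPM in HCC827, 4.92-fold lower (log2 fold -2.30 ± 0.35, adjusted p = 0.000192), and PacBio had 8 counts against 0, at least 2.44-fold. The lines were separate in Illumina and ONT but not in PacBio, where H1975 replicate 1 also held 0 counts. The size of the difference was not the same in Illumina and ONT, as compared below.

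ROBO3, known for its role in the crossing of the midline by axons, had 3.33, 3.09 and 3.69 CPM in H1975 against 0.230, 0 and 0.271 CPM in HCC827 in Illumina, and in ONT it had 1.05, 1.61 and 1.40 CPM in H1975 against 0.0862, 0.118 and 0.0565 CPM in HCC827. The folds were -3.93 ± 0.29 (SE; adjusted p = 2.5e-08) and -3.92 ± 0.32 (SE; adjusted p = 2.15e-06), or 15.2-fold and 15.1-fold lower in HCC827. ROBO4, the ROBO receptor of endothelial cells, had 1.76, 2.09 and 2.15 CPM in H1975 against 0, 0.117 and 0.0338 CPM in HCC827 in Illumina. This was 250 counts against 2, a ratio of 72.9 on the TMM-scaled library sizes with a 95% counting interval of 19.96 to 605. The fitted log2 fold was -6.00 ± 0.48, and it was -5.13 and -6.72 without HCC827 replicates 1 and 2. Its ONT levels were 0.297, 0.385 and 0.278 CPM in H1975 against 0 in all 3 libraries in HCC827, or 99 counts against 0, at least 26.4-fold. ROBO3 and ROBO4 were both near 0 in HCC827, and their ranges were separate on both platforms. Of the endothelial markers tested in Illumina PECAM1 and KDR were called lower in HCC827, VWF was called higher and CDH5 was not called. The antisense gene ENSG00000254568, which overlaps ROBO4, held 123 Illumina counts in H1975 and 2 in HCC827, and 87 and 0 in ONT. Another overlapping antisense gene, ENSG00000254943, held 34 and 0 counts on both platforms, so the ROBO4 counts are uncertain.

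ROBO2 went the other way. It had 16.3, 17.5 and 15.2 CPM in H1975 against 18.4, 22.8 and 18.9 CPM in HCC827 in Illumina, and in ONT it had 3.47, 2.97 and 3.08 CPM in H1975 against 4.99, 8.44 and 3.71 CPM in HCC827, higher in each HCC827 library than in each H1975 library. The differences were small, at 0.27 ± 0.11 (SE; adjusted p = 0.038) and 0.85 ± 0.26 (SE; adjusted p = 0.015). The Illumina call was lost without 5 of the 6 libraries taken singly, at folds of 0.27 (adjusted p = 0.1), 0.32 (adjusted p = 0.0516) and 0.22 (adjusted p = 0.163) without H1975 replicates 1, 2 and 3. Without HCC827 replicates 2 and 3 the ROBO2 fold in Illumina was 0.20 (adjusted p = 0.0856) and 0.28 (adjusted p = 0.0536). The ONT call was lost without H1975 replicate 2 (0.80, adjusted p = 0.0547) and with total counts (0.33, adjusted p = 0.388).

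The windows around the start sites of members that fell or rose most on both platforms are shown for their base composition. They run 5′ to 3′ on the gene's strand from 250 bases before to 50 after the start (RefSeq, GRCh38.p14), with each CG dinucleotide, the site of DNA methylation, in capitals. EPHB6 lies at chr7:142862506-142862805 (+), the downstream and upstream windows of ROBO1 at chr3:79019410-79019709 and chr3:79767949-79768248 (-), and the first window of ROBO3 at chr11:124865182-124865481 (+). ROBO4 lies at chr11:124897816-124898115 (-), SLIT2 at chr4:20251655-20251954 (+) and UNC5C at chr4:95548924-95549223 (-).
EPHB6: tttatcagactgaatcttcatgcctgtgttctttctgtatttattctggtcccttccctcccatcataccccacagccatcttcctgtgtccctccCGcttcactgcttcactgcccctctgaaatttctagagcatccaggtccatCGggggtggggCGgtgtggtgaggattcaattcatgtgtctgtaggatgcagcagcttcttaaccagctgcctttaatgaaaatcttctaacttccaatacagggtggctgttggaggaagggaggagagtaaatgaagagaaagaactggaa
ROBO1 downstream start: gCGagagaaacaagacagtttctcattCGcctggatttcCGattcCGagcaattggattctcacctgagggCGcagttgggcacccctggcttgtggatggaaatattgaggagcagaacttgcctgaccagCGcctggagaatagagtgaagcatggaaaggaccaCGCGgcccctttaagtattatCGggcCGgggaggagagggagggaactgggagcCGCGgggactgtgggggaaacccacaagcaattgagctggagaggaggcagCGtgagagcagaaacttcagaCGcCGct
ROBO1 upstream start: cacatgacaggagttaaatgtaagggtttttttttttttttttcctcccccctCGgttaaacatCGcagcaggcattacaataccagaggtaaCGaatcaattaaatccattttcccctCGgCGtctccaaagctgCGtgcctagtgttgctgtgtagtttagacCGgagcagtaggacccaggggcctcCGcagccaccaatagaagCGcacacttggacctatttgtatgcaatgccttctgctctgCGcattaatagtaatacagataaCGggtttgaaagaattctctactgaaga
ROBO3: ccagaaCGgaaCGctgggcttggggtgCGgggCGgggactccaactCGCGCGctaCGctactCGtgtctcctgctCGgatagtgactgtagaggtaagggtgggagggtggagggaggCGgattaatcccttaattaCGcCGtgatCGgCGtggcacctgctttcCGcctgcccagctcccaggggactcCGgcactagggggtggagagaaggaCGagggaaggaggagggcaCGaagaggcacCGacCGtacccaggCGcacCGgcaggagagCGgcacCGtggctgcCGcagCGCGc
ROBO4: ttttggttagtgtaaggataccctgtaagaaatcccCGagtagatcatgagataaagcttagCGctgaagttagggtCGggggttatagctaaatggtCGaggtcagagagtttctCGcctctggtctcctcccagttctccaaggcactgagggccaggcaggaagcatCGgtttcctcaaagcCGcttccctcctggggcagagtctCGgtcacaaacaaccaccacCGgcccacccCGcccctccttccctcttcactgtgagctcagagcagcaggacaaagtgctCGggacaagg
SLIT2: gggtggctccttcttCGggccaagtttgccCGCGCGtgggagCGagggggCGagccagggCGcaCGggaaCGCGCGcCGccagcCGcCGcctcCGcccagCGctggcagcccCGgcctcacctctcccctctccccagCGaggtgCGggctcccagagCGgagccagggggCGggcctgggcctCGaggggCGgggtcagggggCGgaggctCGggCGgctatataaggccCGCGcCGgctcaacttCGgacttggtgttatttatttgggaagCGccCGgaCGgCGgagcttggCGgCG
UNC5C: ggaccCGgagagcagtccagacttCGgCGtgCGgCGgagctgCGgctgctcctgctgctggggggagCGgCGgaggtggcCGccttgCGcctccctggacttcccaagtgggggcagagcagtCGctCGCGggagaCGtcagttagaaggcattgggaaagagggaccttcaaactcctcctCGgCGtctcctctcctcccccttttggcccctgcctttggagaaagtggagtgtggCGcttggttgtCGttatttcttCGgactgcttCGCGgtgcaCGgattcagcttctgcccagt

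The windows differ widely in CG dinucleotides: EPHB6 has 3, ROBO4 11, the ROBO1 windows 15 and 11, UNC5C 22, ROBO3 28 and SLIT2 36. The other ROBO3 windows, not shown, have 21 and 19. The EPHB6 start used, at 142862756, lies inside the gene as annotated in GENCODE, which begins at 142855061. No window at that upstream end was listed. Over all 35116 promoter windows in the table the median was 14 (quartiles 4 and 28), and over the 42 windows of the 31 members it lists the median was 23 (quartiles 19 and 32.5). Among the windows shown for genes that fell, the count thus ran from 3 to 36. The letters GGGCGG, searched on both strands, were in 34 of 42 member windows beside 45.0% of all windows. CAGGTG was in 9 of 42 beside 20.6%, TATAAA in 2 beside 11.5% and TGAGTCA in 0 beside 4.95%, all on both strands. None of these motifs is contained in another, and matches describe the sequence only. EFNB3, EPHA10, NTN1, UNC5B and UNC5D were not matched. DNA methylation was not measured in these libraries.

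**Figure D2:**
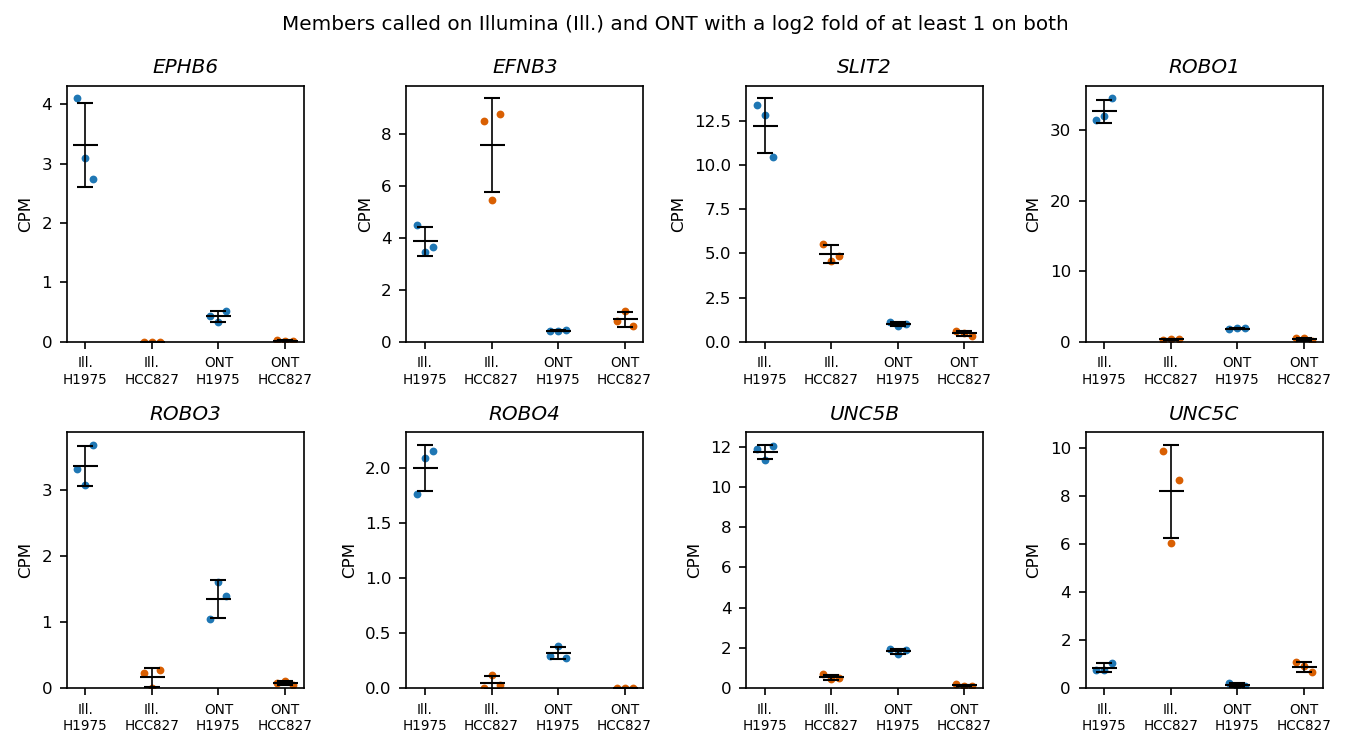
CPM of the 8 genes called on both Illumina (Ill.) and ONT with a log2 fold of at least 1 on both, with 1 point per library and bars at the mean ± SD (n = 3) on a linear axis that starts at 0. EFNB3 and UNC5C are higher in HCC827 (orange) and the other 6 are higher in H1975 (blue), with no overlap of the lines on either platform.

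Of the netrins, NTN1, the canonical attractant ligand of DCC, had 47.0, 43.7 and 46.5 CPM in H1975 against 27.7, 27.9 and 24.1 CPM in HCC827 in Illumina. It was lower in every HCC827 library (log2 fold -0.79 ± 0.10, adjusted p = 4.14e-06). The ONT libraries held 2.74, 2.69 and 3.09 CPM in H1975 against 2.10, 2.52 and 1.51 CPM in HCC827, again with separate ranges, but the fold of -0.47 ± 0.20 (SE; adjusted p = 0.0625) was not called. It was -0.62 (adjusted p = 0.00607) without HCC827 replicate 2.

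NTN4, a netrin of basement membranes, was abundant and did not pass the test in Illumina, where it had 70.9, 67.4 and 70.1 CPM in H1975 against 79.7, 57.6 and 69.4 CPM in HCC827 with overlapping ranges (adjusted p = 0.985). In ONT it had 3.95, 3.71 and 4.17 CPM in H1975 against 6.95, 7.96 and 4.98 CPM in HCC827, higher in every HCC827 library (log2 fold 0.75 ± 0.19, adjusted p = 0.00471). PacBio had 12 counts in H1975 and 10 in HCC827, a ratio of 0.910 with a 95% counting interval of 0.352 to 2.30. With total counts the ONT fold was 0.21 (adjusted p = 0.428).

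The netrin receptors held opposite changes among the UNC5 genes, which encode repulsive receptors with a cytoplasmic death domain. UNC5B had 11.9, 11.3 and 12.0 CPM in H1975 against 0.691, 0.466 and 0.508 CPM in HCC827 in Illumina, and in ONT it had 1.94, 1.68 and 1.89 CPM in H1975 against 0.194, 0.118 and 0.127 CPM in HCC827. HCC827 was 19.9-fold lower in Illumina (log2 fold -4.31 ± 0.17, adjusted p = 3.34e-11) and 12.3-fold lower in ONT (log2 fold -3.62 ± 0.25, adjusted p = 7.94e-07), with no overlap. UNC5C had 0.772, 0.762 and 1.06 CPM in H1975 against 9.88, 6.06 and 8.66 CPM in HCC827 in Illumina, and in ONT it had 0.225, 0.0710 and 0.0794 CPM in H1975 against 1.10, 0.922 and 0.663 CPM in HCC827. HCC827 was 9.89-fold higher in Illumina (log2 fold 3.31 ± 0.20, adjusted p = 2.29e-09) and higher in ONT by 2.81 ± 0.40 (SE; adjusted p = 0.000116) on the log2 scale, also with no overlap. The ONT fold was 3.55 without H1975 replicate 1. The overlapping opposite-strand gene UNC5C-AS1 held 3 Illumina counts in H1975 and 60 in HCC827, and 2 and 55 in ONT. UNC5C itself had 107 and 651 Illumina counts and 40 and 227 ONT counts, so the UNC5C counts are uncertain.

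UNC5A was low and lower still in HCC827. Its Illumina levels were 1.35, 1.65 and 1.17 CPM in H1975 against 0.0864, 0.117 and 0.203 CPM in HCC827, with separate ranges (log2 fold -3.31 ± 0.37, adjusted p = 1.41e-06), and it was not tested in ONT. UNC5D was not called on either platform, at 0.06 ± 0.10 (SE; adjusted p = 0.618) in Illumina and -0.10 ± 0.15 (SE; adjusted p = 0.566) in ONT, with overlapping ranges. DCC, the attractive netrin receptor, had 0.459, 1.72 and 0.425 CPM in H1975 against 0.893, 1.52 and 0.575 CPM in HCC827 in Illumina, where H1975 replicate 2 was the highest library. Its fold of -0.05 ± 0.51 (SE; adjusted p = 0.932) turned to 0.95 (adjusted p = 0.0324) without that library, and in ONT it was -0.34 ± 0.33 (SE; adjusted p = 0.387). H1975 replicate 2 was also the highest H1975 Illumina library for other low members, among them EPHA3, EPHA6, EPHA7, EPHB1, SLIT1 and SLIT3. UNC5C and ROBO4 did not share this. The Illumina values of these low members thus share a limit of that library.

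Per kilobase of exon, the scale on which genes can be compared, the order of Illumina levels in H1975 began with EPHB4 at 27.5 ± 1.33 CPM per kb (SD, n = 3), EPHA1 at 20.7 ± 1.22, NTN4 at 15.9 ± 0.43, EFNA1 at 13.1 ± 0.67, EPHA2 at 12.3 ± 0.32 and EPHA5 at 10.9 ± 0.16. In that order the ranges of EFNA1 and EPHA2 overlapped in H1975. In HCC827 EPHB4 again had the highest mean, at 22.5 ± 2.16 CPM per kb, followed by EPHA2 at 19.3 ± 0.40, EPHA1 at 18.5 ± 3.26, EFNA1 at 15.9 ± 1.31, NTN4 at 15.8 ± 2.53 and EPHA5 at 15.1 ± 1.64. The ranges of each neighbouring pair overlapped from EPHA2 to EPHA5, and the highest EPHA1 library (21.4) lay above the lowest EPHB4 library (20.7), so that order is not resolved. Both lines therefore held the same 6 genes at the top in Illumina. EPHA5 among them had 0 PacBio counts in both lines, so its place is uncertain. In PacBio EPHA1 had 71 counts in all, EPHA2 and EPHB4 25 each, NTN4 22 and EFNA1 11. At least 1 CPM per kb was reached by 19 members in H1975 and 18 in HCC827, and 8 and 13 members were below 0.1. ROBO1 was at 2.95 ± 0.15 CPM per kb in H1975, which was 13th of 36, and fell to 29th in HCC827, while UNC5C moved from 31st to 19th.

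The platforms were compared directly by testing whether the line difference was the same in ONT and Illumina, which share the RNA samples. Of 35 members tested 5 were called, all with the ONT fold above that of Illumina, beside 7.16% of 29395 genes called and 5.03% called in that direction. The median of this difference over all genes was 0.11. Positive values mean that the fold of HCC827 over H1975 was higher, or less negative, in ONT. ROBO1 differed by 4.48 ± 0.44 (SE; adjusted p = 2.04e-06): its levels in H1975 were 97.8 times those in HCC827 in Illumina and 4.92 times in ONT. EPHA6 differed by 2.91 ± 0.61 (SE; adjusted p = 0.00596), lower in HCC827 in Illumina and not called in ONT. Both calls held when any 1 RNA sample was left out, with 5.09 for ROBO1 without HCC827 replicate 3 and 2.14 for EPHA6 without H1975 replicate 2. The number of members called was 3, 2, 3 and 3 without H1975 replicate 1, H1975 replicate 2, HCC827 replicate 1 and HCC827 replicate 2.

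SLIT3 differed by 2.76 ± 0.59 (SE; adjusted p = 0.00607), with a call lost without the sample of H1975 replicate 2 (2.16, adjusted p = 0.0658) or HCC827 replicate 1 (2.16, adjusted p = 0.0944). In Illumina alone SLIT3 did not pass the filter on low counts. It had 54 Illumina counts in H1975, 31 of them in replicate 2, and 8 in HCC827, so the size of this difference is uncertain. NTN4 differed by 0.92 ± 0.22 (SE; adjusted p = 0.0146), a difference of 0.60 (adjusted p = 0.0613) without HCC827 replicate 2. Its call was also lost without H1975 replicates 1, 2 or 3, at 0.92 (adjusted p = 0.0851), 0.90 (adjusted p = 0.0932) and 0.94 (adjusted p = 0.0813), and with total counts (0.57, adjusted p = 0.178). EPHB6 had an adjusted p of 0.0344, but its HCC827 libraries were all at 0 in Illumina, so the fitted value of 5.56 ± 1.52 is no measure of size. Its call was lost without any of 5 RNA samples taken singly, at adjusted p values of 0.0704 and 0.0666 without H1975 replicates 1 and 2, and of 0.234, 0.0662 and 0.0792 without HCC827 replicates 1, 2 and 3.

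**Figure D3:**
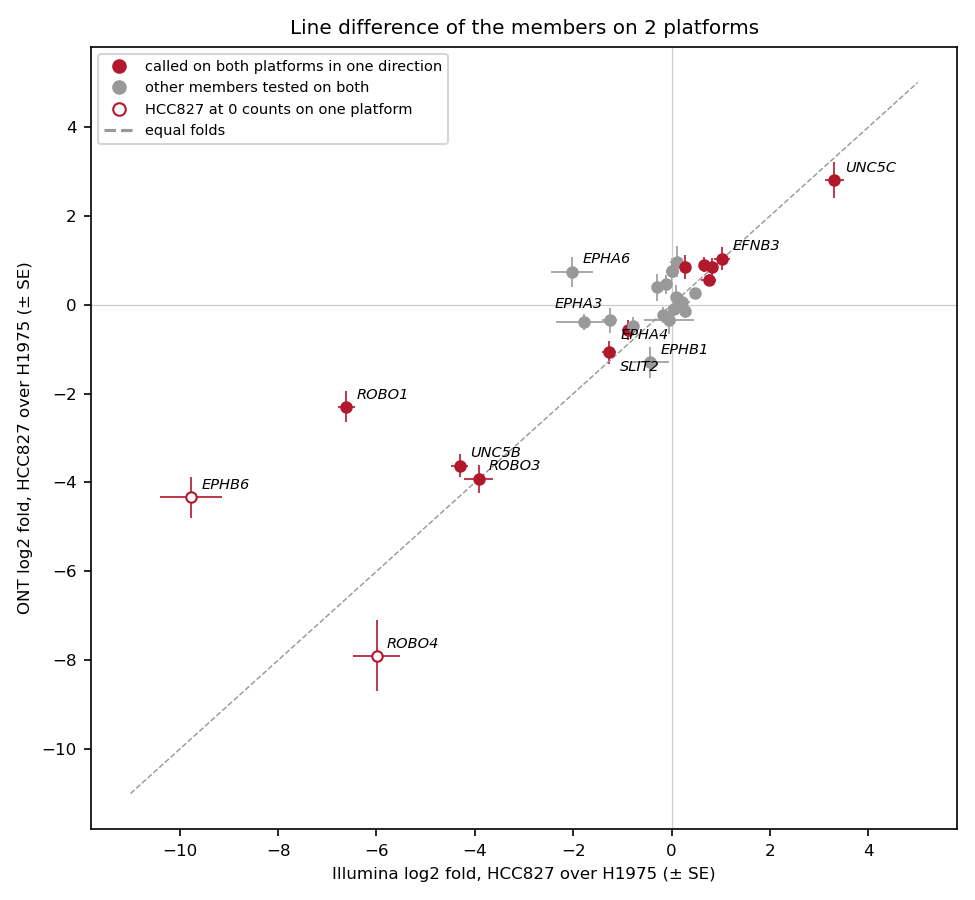
Log2 fold of HCC827 over H1975 in Illumina (horizontal) and ONT (vertical) for the 30 guidance genes tested on both, with SE bars and a dashed line of equal folds. Red points were called on both in the same direction, and open points (EPHB6, ROBO4) had 0 counts in HCC827 on 1 platform, so their fitted position there is no bound; ROBO1 and EPHA6 lie above the dashed line.

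Levels also differed between the platforms within a line. ONT levels were above Illumina levels for 4 of 30 members in H1975 (EFNA4, EPHA3, EPHA5, EPHB1) and 5 of 28 in HCC827 (EPHA3, EPHA5, EPHA6, EPHB1, ROBO1). The members' median log2 ratio of ONT to Illumina was -2.73 in H1975 and -1.98 in HCC827, beside -1.46 and -1.53 over all genes tested on both. ONT read 19 of 30 and 17 of 28 members below the median gene.

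EPHA5 stood at the other end. Its mean was 778 CPM in ONT and 107 CPM in Illumina in H1975, 7.26-fold apart, and 928 and 149 CPM in HCC827, 6.23-fold apart. Only 3.93% and 4.47% of genes had a higher ratio. At its ONT share the PacBio libraries would have held 137 EPHA5 counts in H1975 and 101 in HCC827, and they held 0 in both. The antisense gene EPHA5-AS1 held 48 and 55 ONT counts in H1975 and HCC827, far under those of EPHA5. The origin of the high ONT level of EPHA5, and of its absence from PacBio, was not tested. NTN4 was a reverse case, with 12 and 10 PacBio counts where its ONT share would give 0.692 and 0.738. It was not alone: EFNB1 had 8 and 5 where its share would give 0.173 and 0.150, and EPHA1 39 and 32 where 7.84 and 4.20. UNC5D also had 0 PacBio counts in both lines, but its ONT share would give only 3.16 and 1.85. Unlike EPHA5, its ONT level was below that of Illumina, at ratios of 0.644 in H1975 and 0.580 in HCC827.

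**Figure D4:**
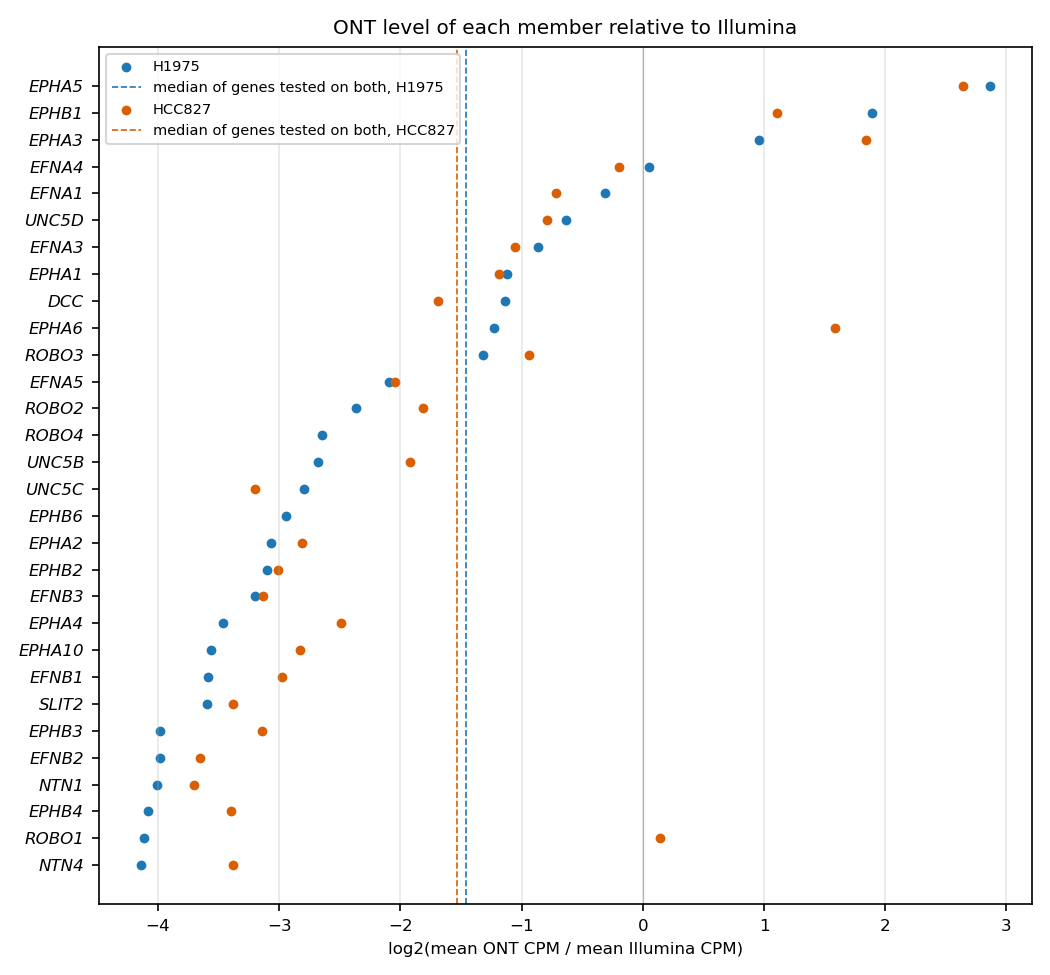
Log2 ratio of mean ONT CPM to mean Illumina CPM for each guidance gene tested on both platforms, in H1975 (blue) and HCC827 (orange), with dashed lines at the median of all genes tested on both. EPHA5, EPHB1 and EPHA3 lie right of 0 in both lines, ROBO1 and EPHA6 lie right of 0 in HCC827 alone, and genes without counts in HCC827 on either platform have no orange point.

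Each PacBio library held fewer counts than there were genes in its table, and few members could be compared there. Of the 36 members 16 had any PacBio count and 20 had 0. EPHB4 had 12 and 13 counts in H1975 and HCC827 (ratio 1.18, 95% counting interval 0.498 to 2.84), EFNB1 had 8 and 5 (0.683, 0.176 to 2.37) and EFNA1 had 6 and 5 (0.910, 0.220 to 3.58). EPHA1, with 39 and 32 counts, had a ratio of 0.896 (0.544 to 1.47), and none of these intervals left out 1. In these libraries 3.34% of 1885 tested genes were called. EPHA1 was the only member tested, and it was not called by edgeR or DESeq2, nor was its unadjusted p under 0.05. Without the filter on low counts 16 members were tested by edgeR, of which 0 were called and 1 had an unadjusted p under 0.05. Counting intervals here cover counting error only. Pairs of PacBio libraries within each line (replicates 2 and 3 of H1975, 1 and 2 of HCC827) differed by less than sampling noise, with mean chi-square values of 0.550 and 0.671 per gene, and each pair was counted as 1 sample.

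The members' genome positions were compared with their direction. ROBO3 and ROBO4 lie 2.22 kb apart on chromosome 11 and both fell. ROBO1 and ROBO2 lie 947 kb apart on chromosome 3 and moved in opposite directions. EPHB6 and EPHA1 lie 519 kb apart on chromosome 7, and only EPHB6 was called. EFNA4 and EFNA3 lie 9.28 kb apart on chromosome 1 and EFNA3 and EFNA1 40.3 kb apart. Of the 16 nearest tested protein-coding neighbours of the 8 genes with large folds on both platforms, 10 were called in Illumina in the direction of their guidance gene, 8 with a log2 fold of at least 1. Among all genes 38% were called lower and 36.1% higher, and 20.2% and 18.2% with a log2 fold of at least 1. ROBO3 and ROBO4 are each other's neighbours and count among the 10. TRPV6, a calcium channel gene 0.114 kb from EPHB6, was seen in H1975 alone in Illumina, with 121 counts against 0. Both neighbours of SLIT2, LCORL and PACRGL, were not called.

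Genes known to act with these receptors were examined as lists. Of the Eph signalling partners 10 rose and 12 fell among 27 tested in Illumina, and 9 rose and 8 fell among 28 in ONT, beside backgrounds of 74.1% and 62.7% called. The largest changes called on both platforms were NGEF, the exchange factor ephexin (2.63 ± 0.11 in Illumina), GRB7, an adaptor protein (2.39 ± 0.14), VAV3 (-4.50 ± 0.14), and CHN1, the GTPase-activating protein chimaerin (-3.85 ± 0.23). In ONT these were 1.73 ± 0.16, 2.26 ± 0.20, -4.57 ± 0.31 and -3.55 ± 0.30. The Eph list median in Illumina was -0.16.

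The SLIT-ROBO partners split evenly, with 8 higher and 8 lower of 17 tested in Illumina and 5 and 5 of 17 in ONT. Of all genes 36.1% were called higher and 38% lower in Illumina, and 31.1% and 31.6% in ONT. FLRT3, a transmembrane protein that binds ROBO1 and UNC5 receptors, was 2.38 ± 0.15 in Illumina and 2.45 ± 0.27 in ONT, and VASP, an actin regulator, 1.71 ± 0.10 in Illumina and was higher in ONT as well. ENAH, also an actin regulator of that family, was lower, at -1.65 ± 0.11 and -1.09 ± 0.23, as was SOS1, an exchange factor, at -0.99 ± 0.09 and -0.56 ± 0.18.

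Of the netrin partners 5 were called higher and 11 lower among 19 tested in Illumina (median log2 fold -0.85), beside 36.1% and 38% of all genes. In ONT 6 were higher and 9 lower among 19 (median -0.32), beside 31.1% and 31.6%. The same direction was called on both platforms for 12 of them, 4 higher and 8 lower, beside 55.4% of all genes tested on both. DSCAML1, a cell adhesion molecule, rose by 7.94 ± 0.20 in Illumina and 5.90 ± 0.23 in ONT. DAPK1, a kinase that acts with UNC5 receptors, rose by 1.70 ± 0.10 and 0.91 ± 0.13. Its mean ONT levels of 928 CPM in H1975 and 1745 CPM in HCC827 were far above its Illumina levels of 38.3 and 124 CPM. PacBio held 13 and 21 DAPK1 counts. The origin of the high ONT level of DAPK1 was not tested, so its ONT fold is uncertain. DRAXIN, a secreted netrin antagonist, was seen in H1975 alone in Illumina (58 counts against 0) and had an ONT fold of -2.30 ± 0.41. NTNG2, a membrane-anchored netrin relative, was lower at -4.13 ± 0.29 and -2.46 ± 0.45.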

How the data were processed

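The data were gene-level counts for 18 RNA-seq libraries, 3 per line and platform. Per the submitters' processing notes, the authors' tools included minimap2 2.17 and featureCounts with GRCh38. The deposited values are raw counts per gene, not normalized, with 60738 features in the Illumina tables and 58797 in the long-read tables. The labels state neither the aligner of each platform, nor the annotation release, nor the strand setting. The 76 sequin rows were left out, and 45 duplicated Y-chromosome copies of shared X and Y genes were added to the X copy. Symbols, positions and exon lengths came from GENCODE release 44. The members and gene lists were chosen with earlier results of these data known.

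Within each platform all genes were tested with edgeR 4.0.16 in R 4.3.3, using TMM scaling, the filterByExpr filter by line, a robust quasi-likelihood fit and Benjamini-Hochberg adjustment over all tested genes. The SE is the absolute log2 fold divided by the square root of the F statistic. The script was tested on simulated counts. PacBio libraries of a line were summed where their counts agreed within sampling noise, defined as a mean chi-square under 1 per gene over genes with at least 20 counts. Ratios and bounds from summed counts used the same effective library sizes as the CPM values. The platform comparison was a line by platform interaction over the 12 Illumina and ONT libraries. Alternatives were DESeq2 1.42.0, its size factors in edgeR, total counts without TMM, no filter on low counts, a replicate block and leaving out each library. The labels describe 3 independently grown samples per line, so the p-values measure the spread between those samples. Gene totals per library bound the precision: in PacBio the most abundant member had 71 counts in all.

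Genes named with full values were the members called on Illumina and ONT with an absolute log2 fold of at least 1 on both, members whose line fold differed between these platforms, and members with at least 10 PacBio counts. Other members were described by their values and calls. From each partner list the 2 largest rises and 2 largest falls called on both platforms were named.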

Additional observations from a re-analysis of the deposited data

Results flagged for a closer look

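In 5 guidance genes the fold of HCC827 over H1975 differed between the ONT and Illumina libraries of the same RNA samples, by edgeR's test of the line by platform interaction with adjustment over all genes. On the log2 scale the ONT fold exceeded the Illumina fold by 4.48 for ROBO1, 2.91 for EPHA6, 2.76 for SLIT3 and 0.92 for NTN4. The SLIT3 size is uncertain, because SLIT3 did not pass the filter in Illumina alone, with 54 counts in H1975 and 8 in HCC827. For EPHB6 the fitted value was 5.56, with 0 Illumina counts in HCC827, so its size cannot be read. All 5 values were positive, and of all genes tested 5.03% were called with the ONT fold above. For ROBO1 the ONT level was under that of Illumina in H1975 and above it in HCC827, where both were below 1 CPM. For EPHA6 the ONT levels overlapped between the lines while the Illumina levels did not. What sets the platforms apart for these genes was not tested.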

How the results depend on the processing

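The number of members called was 23 in Illumina and stayed between 20 and 26 over the alternatives, and 18 in ONT, between 13 and 21. In PacBio it was 0 under every alternative, but only 1 member was tested in the main fit and 16 without the filter on low counts. The number whose line fold differed between ONT and Illumina was 5, rose to 11 without the filter on low counts, and ran from 2 to 7 when each RNA sample was left out in turn. Of 782 values of single members under alternatives, 681 kept direction and side of the threshold, 53 lost and 20 gained a call, 19 changed sign without a call, and 9 reversed. With total counts in place of TMM the reversals were EPHB2 (-0.26), UNC5D (-0.29), EFNA1 (-0.086), EPHA10 (-0.33) and ROBO2 (-0.084) in Illumina, and EFNA3 (-0.50), EPHA5 (-0.31) and EFNA4 (-0.0055) in ONT. DCC in Illumina ran from -0.35 to 0.95 over the libraries left out, and 0.95 came without H1975 replicate 2. Total counts lowered the share of called genes that were higher from 48.8% to 33.7% in Illumina, from 49.5% to 23.9% in ONT and from 70.2% to 20.8% in the interaction, where DESeq2's size factors gave 59.5%. Over all genes PacBio had 63 calls, 206 with all 6 libraries kept apart, 0 without H1975 replicate 2 or 3 or HCC827 replicate 1 or 2, and 365 without HCC827 replicate 3.

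Libraries that share a replicate number across the lines did not deviate together, with correlations of -0.07, -0.01 and 0.11 in Illumina, 0.02, -0.14 and -0.08 in ONT and -0.53, 0.24 and -0.53 in PacBio, so the numbers were not taken as pairs between lines. With the replicate block, 23 members were called in Illumina and 16 in ONT, where EFNB2 and EPHB3 were lost. In the interaction the block is the shared RNA sample, and 6 members were called with it, the 5 above and EPHA10. PacBio depth limited every member there, and the members below 0.1 CPM per kb rested on few Illumina counts.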
